A study of Mus musculus with 8 samples.

Results

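Replacement histone variants were described across mouse granulocyte-macrophage progenitors immortalised by HOXA9 (iGMPs). These variants are encoded by genes outside the replication-dependent histone clusters. The 10 genes H3f3a, H3f3b, H2afz, H2afv, H2afx, H2afy, H2afj, Cenpa, H1f0 and H1fx were taken by name out of 34199 genes in the count tables. All 10 had a row, and 9 passed a filter on low counts that kept 13080 genes for testing, H1f0 being the exception. All cells were C57Bl/6 iGMPs that carry a Lys-GFP reporter and a fusion of HOXA9 with the hormone-binding part of the estrogen receptor (ER), and were grown with stem cell factor. Cells labelled t0 were sampled at 0 h with 150 ng/ml estradiol, which keeps the fusion active. CAF-1 OFF cells kept estradiol and received 500 µM IPTG for 48 h, which induces an shRNA against Chaf1b, a subunit of the histone chaperone CAF-1. IPTG control cells were also exposed to IPTG for 48 h, and the labels give neither their vector nor a dose of their own. Hoxa9 OFF cells were cultured without estradiol for 48 h, so HOXA9 was inactivated. The cells are clonal sub-lines of an immortalised culture, and progenitors taken straight from an animal were not part of these libraries. Each group had 2 libraries, which gives 8 in all.

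Canonical histones are made in S phase and are deposited behind the replication fork, where CAF-1 places H3 and H4. Most replacement variants are made also outside S phase, from polyadenylated messenger RNA, and enter chromatin by other routes. H3.3 is deposited at active genes by HIRA and at repeats by DAXX and ATRX, H2A.Z marks promoters, H2A.X is phosphorylated at DNA breaks, macroH2A is found in silent chromatin, CENP-A defines the centromere, and variant linker histones bind DNA between nucleosomes.

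Total gene counts were between 14044284 and 22423837 per library. Chaf1b, the shRNA target, stood at 96.8 and 100.3 CPM (counts scaled to equal library totals, which TMM normalisation adjusts) in t0, 95.1 and 101.7 in the IPTG control, 18.7 and 9.72 in CAF-1 OFF, and 48.3 and 41.0 in Hoxa9 OFF, for replicates 1 and 2. Its log2 fold change in CAF-1 OFF against t0 was -2.79 ± 0.27 (SE, n = 2 and 2). The IPTG control replicate 1 stood apart in reads outside annotated genes (14.6% against 5.30% to 7.79% in the other libraries). Its summed level of the 70 replication-dependent histone genes was 144.1 CPM, against 62.2 in replicate 2 of its group, 73.9 and 56.2 in t0, 118.6 and 143.2 in CAF-1 OFF, and 78.8 and 115.5 in Hoxa9 OFF. Markers of progenitors summed to between 10499 and 16089 CPM in t0, the IPTG control and CAF-1 OFF and to 8238 and 5977 CPM in Hoxa9 OFF. Of these 7 progenitor markers, 1 was called higher in CAF-1 OFF against t0 (Elane), where 10.5% of all tested genes were. In Hoxa9 OFF against t0, 1 was called higher (Ms4a3) and 3 lower, where 25.2% and 22.1% of all tested genes were. The lymphoid marker Cd3e and the platelet gene Gp1bb were at 0 counts in all 8 libraries.

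The promoters of both H3.3 genes and of H1fx are shown because these genes encode the same protein with unlike levels (H3f3a and H3f3b) or had the largest responses (H3f3b and H1fx). Each is the RefSeq sequence from 250 bases before to 50 bases after the gene start in GRCm38.p6, read in the direction of the gene. All 3 lie on the minus strand, at chr1:180813556-180813855 (H3f3a), chr11:116024455-116024754 (H3f3b) and chr6:87981433-87981732 (H1fx, named H1f10 in RefSeq). Capitals mark matches on either strand to CCAAT (the CCAAT box), to TTTGAA (the cell cycle homology region), to TTTNNCGC (E2F-like) or to AAACACA (the H1 box).
H3f3b: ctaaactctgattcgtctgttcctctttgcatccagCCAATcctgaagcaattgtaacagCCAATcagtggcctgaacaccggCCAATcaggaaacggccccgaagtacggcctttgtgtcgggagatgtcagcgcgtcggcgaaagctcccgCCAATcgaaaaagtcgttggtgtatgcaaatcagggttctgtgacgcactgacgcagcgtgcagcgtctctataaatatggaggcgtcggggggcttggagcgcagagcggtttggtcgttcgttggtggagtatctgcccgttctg
H3f3a: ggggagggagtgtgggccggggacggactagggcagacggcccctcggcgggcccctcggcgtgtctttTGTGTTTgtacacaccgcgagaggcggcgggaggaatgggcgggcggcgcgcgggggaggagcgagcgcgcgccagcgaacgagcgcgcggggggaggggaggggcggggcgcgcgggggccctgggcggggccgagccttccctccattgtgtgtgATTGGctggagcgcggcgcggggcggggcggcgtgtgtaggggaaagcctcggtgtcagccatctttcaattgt
H1fx: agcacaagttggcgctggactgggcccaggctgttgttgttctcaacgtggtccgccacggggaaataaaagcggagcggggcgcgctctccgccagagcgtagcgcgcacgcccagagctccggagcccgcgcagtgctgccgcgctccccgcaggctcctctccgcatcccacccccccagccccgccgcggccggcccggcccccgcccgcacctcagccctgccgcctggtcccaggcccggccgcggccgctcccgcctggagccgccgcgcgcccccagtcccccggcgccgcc
The H3f3b promoter held 4 matches to CCAAT, all in the direction of the gene. The H3f3a promoter held 1 match to CCAAT and 1 to AAACACA, both on the opposite strand. The H1fx window held none of the 4 motifs, and 77.7% of its bases were G or C, against 55% for H3f3b and 74% for H3f3a. Of the 9 variant genes with an entry in the promoter table, 6 held CCAAT, 2 held TTTGAA (H2afv and Cenpa), 1 held AAACACA and 0 held TTTNNCGC. Among all 32851 promoters of this length, 37.4% held CCAAT, 17.9% TTTGAA, 7.18% AAACACA and 5.17% TTTNNCGC. A match is a description of the letters and not a bound site.

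H3f3b and H1fx were higher in CAF-1 OFF than in t0, and none of the other 7 tested variants was called in either direction. A gene was called where the edgeR quasi-likelihood test gave a false discovery rate (FDR) under 0.05 and the groups differed 1.5-fold or more. Thus 2 of 9 tested variants were called higher, where 10.5% of all tested genes were, and 0 were called lower, where 3.5% were. The median log2 fold change was 0.20 over the 9 variants and 0.01 over all tested genes. Against the IPTG control, which had received IPTG for the same 48 h, again 2 were called higher (9.56% of all genes) and 0 lower (3.2%). In the comparison of the IPTG control with t0, 0 variants were called and 0.0% of all genes. Unadjusted p-values under 0.05 were found for 100 of the 13080 genes in that comparison and for 0 of the 9 variants, and DESeq2 called 0 variants and 0.0382% of all genes. The 100 genes are fewer than a limit of 0.05 gives where no gene differs. Same-numbered libraries of the 2 groups deviated in the same direction (correlation 0.48 over 13080 genes), and the fit had no term for this. The absence of calls therefore does not show that IPTG had no effect.

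**Figure D1:**
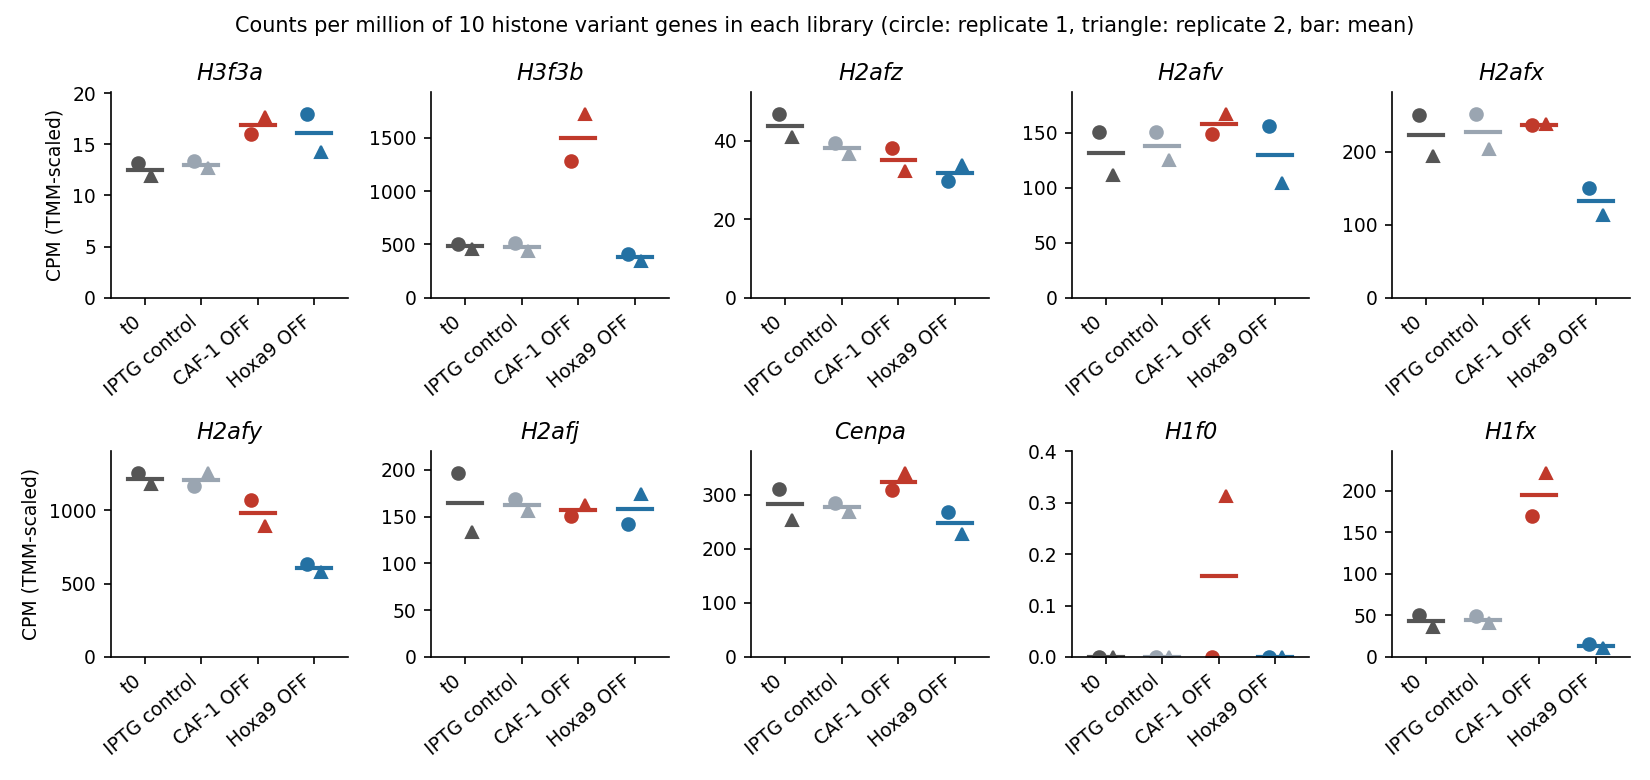
Level of each of the 10 genes in each library, in CPM with TMM-scaled library sizes on a linear axis from 0; circles are replicate 1, triangles replicate 2 and bars the mean of 2 libraries per group. H3f3b and H1fx stand highest in both CAF-1 OFF libraries, and H2afy, H2afx and H1fx stand lowest in both Hoxa9 OFF libraries.

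H3.3, the replacement form of histone H3, is encoded by H3f3a and H3f3b. H3f3b (chr11:115883226-115889276, minus strand, mm9) was counted at 508.7 and 461.4 CPM in t0 and at 510.3 and 437.0 CPM in the IPTG control. It reached 1284 and 1725 CPM in CAF-1 OFF and stood at 407.6 and 348.0 CPM in Hoxa9 OFF. Both CAF-1 OFF libraries were above every other library, and both Hoxa9 OFF libraries were below every other library. H3f3b rose 3.10-fold in CAF-1 OFF against t0 (log2 fold change 1.63 ± 0.17, edgeR FDR 0.00289) and 3.18-fold against the IPTG control (1.67 ± 0.17, edgeR FDR 0.00298). The lower level in Hoxa9 OFF did not pass the test (-0.36 ± 0.17, edgeR FDR 0.102). Measured directly, H3f3b was 3.98-fold higher in CAF-1 OFF than in Hoxa9 OFF (1.99 ± 0.17, edgeR FDR 1.02e-04).

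H3f3a (chr1:182730963-182744074, minus strand, mm9) encodes the same protein and had few counts. Its levels were 13.1 and 11.9 CPM in t0, 13.4 and 12.6 in the IPTG control, 16.1 and 17.7 in CAF-1 OFF, and 17.96 and 14.3 in Hoxa9 OFF. Both treated groups lay above both control groups, but neither difference was called. The log2 fold change against t0 was 0.43 ± 0.18 in CAF-1 OFF (edgeR FDR 0.120) and 0.37 ± 0.18 in Hoxa9 OFF (edgeR FDR 0.112). Most counts of H3.3 messenger RNA came from H3f3b, with 97.5% in both t0 libraries, 97.4% and 97.2% in the IPTG control, 98.8% and 99.0% in CAF-1 OFF, and 95.8% and 96.1% in Hoxa9 OFF. The share was highest in both CAF-1 OFF libraries and lowest in both Hoxa9 OFF libraries. The 2 genes together summed to 521.9 and 473.3 CPM in t0, 523.6 and 449.7 in the IPTG control, 1300 and 1743 in CAF-1 OFF, and 425.6 and 362.2 in Hoxa9 OFF.

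Reads with more than 1 alignment were left out of the gene counts, so levels of genes with copies elsewhere may be understated. Of the 50-base windows of 1 transcript of each gene, 67.5% were found nowhere else in the genome for H3f3a, 74.2% for H3f3b and 16.5% for H2afz. For the other 7 genes the share was between 93.7% and 100%. Per kilobase of transcript, the log2 ratio of H3f3a to H3f3b was -5.45 and -5.45 in t0, -5.43 and -5.29 in the IPTG control, -6.50 and -6.79 in CAF-1 OFF, and -4.68 and -4.78 in Hoxa9 OFF. Per kilobase of such unshared windows, the ratio was still between -6.65 and -4.55 in the 8 libraries. The share of the H3f3a level lost to shared sequence was not tested, and its pair of annotated antisense neighbours, Gm17275 and Gm16067, had 0.36 to 4.18 CPM.

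**Figure D2:**
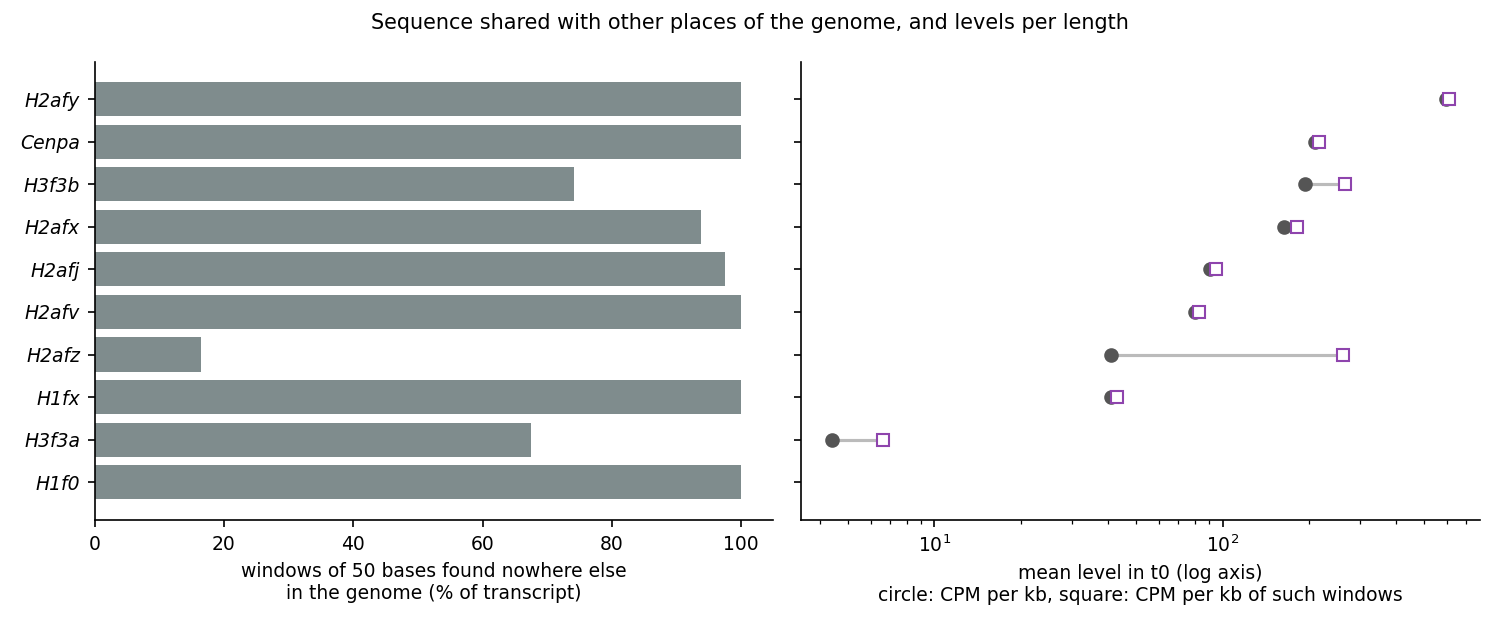
Left, percent of 50-base windows of each gene's transcript that occur nowhere else in the genome; right, mean level in the 2 t0 libraries on a log axis, as CPM per kilobase of transcript (circles) and per kilobase of unshared windows (squares). H1f0, at 0 counts in t0, has no point on the right, and H2afz moves farthest between the scales, from 41.0 to 260.7.

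Linker histones hold the DNA that enters and leaves the nucleosome. H1fx, which encodes a replication-independent linker histone found in most tissues, had the widest range of the 9 tested genes on the log2 scale, with group means 3.84 log2 units apart. It was counted at 50.5 and 36.3 CPM in t0, 49.5 and 40.4 in the IPTG control, 169.7 and 221.1 in CAF-1 OFF, and 16.0 and 11.4 in Hoxa9 OFF. The treated groups moved to opposite sides of the controls, and neither overlapped them. H1fx rose 4.50-fold in CAF-1 OFF against t0 (log2 fold change 2.17 ± 0.23, edgeR FDR 0.00303) and 4.35-fold against the IPTG control (2.12 ± 0.23, edgeR FDR 0.00362). Without the IPTG control replicate 1, the log2 fold changes against that group were 2.25 for H1fx (edgeR FDR 0.0351) and 1.76 for H3f3b (edgeR FDR 0.0334). In Hoxa9 OFF it was 3.18-fold lower than in t0 (-1.67 ± 0.24, edgeR FDR 6.75e-04). Between the 2 treated groups the difference was 14.3-fold (3.84 ± 0.26, edgeR FDR 4.02e-05). H1fx is a single-exon gene (chr6:87930416-87931476, minus strand, mm9) that overlaps Gm5577 on the plus strand. Gm5577 had 0.38 to 1.91 CPM in the 8 libraries, and whether the counting used strand is not given in the sources used here.

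H1f0 encodes H1.0, the linker histone known to accumulate in non-dividing cells. It had 0 counts in 7 libraries and 6 counts (0.31 CPM) in CAF-1 OFF replicate 2, where 3 counts correspond to 0.16 CPM. A count of 0 allows up to 0.13 to 0.21 CPM in the other libraries, for counting error only. GENCODE vM1 holds H1f0 only as a pseudogene spanning 538 bases (chr15:78859152-78859689, mm9), and RefSeq for GRCm38.p6 gives a protein-coding gene of 2293 bases. The annotation behind the counts is not named in the sources used here, so these zeros limit reads in the counted model and not the messenger RNA.

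H2afy, which encodes macroH2A1, and H2afx, which encodes H2A.X, fell with H1fx in Hoxa9 OFF. There, 3 of 9 tested variants were called lower, where 22.1% of all tested genes were, and 0 higher, where 25.2% were. The median log2 fold change of the 9 was -0.36, against 0.01 over all tested genes. H2afy stood at 1253 and 1182 CPM in t0, 1166 and 1253 in the IPTG control, 1074 and 891.2 in CAF-1 OFF, and 632.6 and 578.5 in Hoxa9 OFF. Both Hoxa9 OFF libraries were lowest, and both CAF-1 OFF libraries lay between them and the controls. H2afy fell 2.01-fold in Hoxa9 OFF (log2 fold change -1.01 ± 0.13, edgeR FDR 3.36e-04), and the difference in CAF-1 OFF was not called (-0.31 ± 0.13, edgeR FDR 0.117). It was 1.62-fold higher in CAF-1 OFF than in Hoxa9 OFF (0.70 ± 0.13, edgeR FDR 0.00254). Without CAF-1 OFF replicate 1 this last difference was 0.56, under 1.5-fold, at an edgeR FDR of 0.0241.

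H2afx was counted at 250.1 and 194.5 CPM in t0, 251.7 and 203.6 in the IPTG control, 236.4 and 238.1 in CAF-1 OFF, and 150.8 and 113.6 in Hoxa9 OFF. CAF-1 OFF libraries lay within the range of the controls, and both Hoxa9 OFF libraries lay below it. H2afx fell 1.68-fold in Hoxa9 OFF against t0 (-0.75 ± 0.18, edgeR FDR 0.00857). This call was lost without t0 replicate 1 (-0.56, edgeR FDR 0.0615) and without Hoxa9 OFF replicate 2 (-0.56, edgeR FDR 0.0378, under 1.5-fold). Against t0, the CAF-1 OFF difference was 0.09 ± 0.18 (edgeR FDR 0.738), and between the treated groups H2afx was 1.80-fold higher in CAF-1 OFF (0.84 ± 0.18, edgeR FDR 0.00569). In all, 4 of 9 tested variants were called higher in CAF-1 OFF than in Hoxa9 OFF (H1fx, H3f3b, H2afx and H2afy), where 22.2% of all genes were, and 0 were called lower, where 21.4% were.

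**Figure D3:**
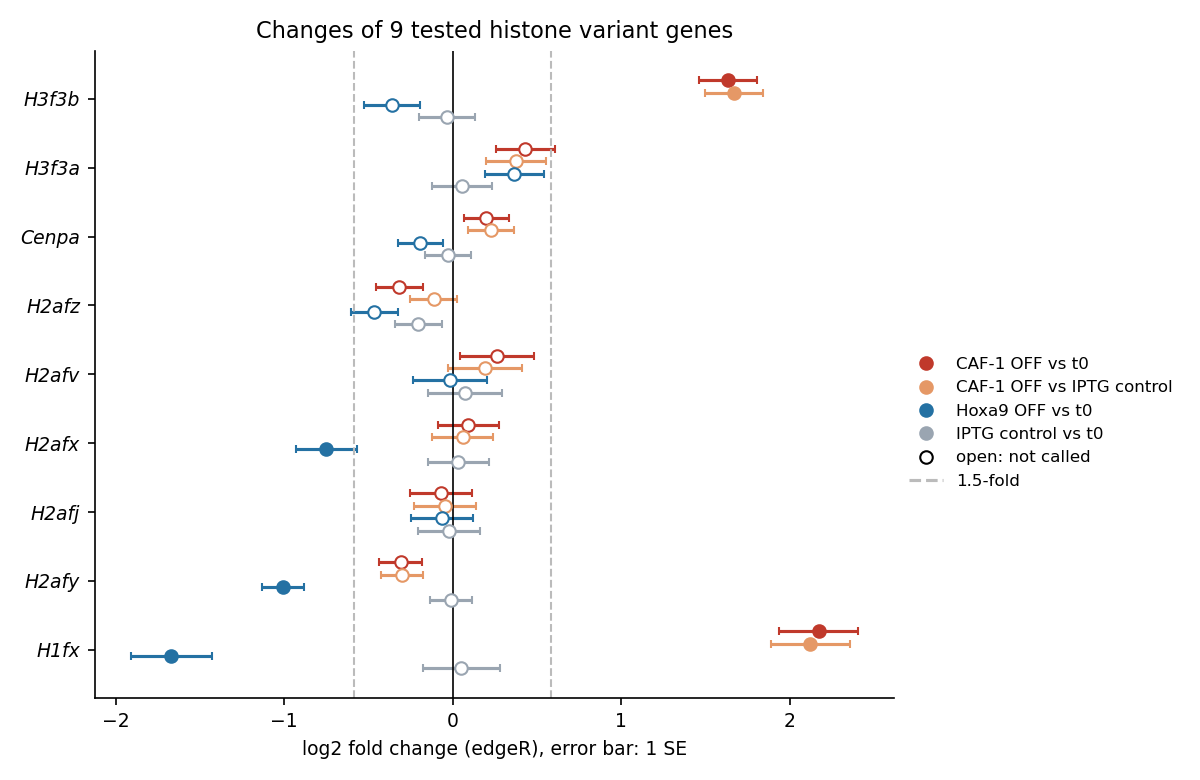
Log2 fold change (horizontal axis) of the 9 tested variant genes in 4 comparisons, with bars of 1 SE from edgeR; filled points are called, open points are not, and dashed lines mark 1.5-fold. H3f3b and H1fx stand to the right in both CAF-1 OFF comparisons, whereas H1fx, H2afy and H2afx stand to the left in Hoxa9 OFF against t0.

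The H2A.Z genes H2afz and H2afv encode nearly identical histones, and neither was called in any comparison. H2afz was counted at 46.8 and 40.8 CPM in t0, 39.5 and 36.6 in the IPTG control, 38.0 and 32.4 in CAF-1 OFF, and 29.7 and 33.8 in Hoxa9 OFF. Levels in Hoxa9 OFF were below both control groups, with a log2 fold change against t0 of -0.46 ± 0.14 that passed the FDR (edgeR FDR 0.0217) and not the 1.5-fold limit. With library sizes left unscaled by TMM it did (-0.65, edgeR FDR 0.00418), a setting that moves the median of all genes in this comparison to -0.18. In CAF-1 OFF the difference was -0.32 ± 0.14 (edgeR FDR 0.143).

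H2afv stood at 150.8 and 111.9 CPM in t0, 150.8 and 125.4 in the IPTG control, 148.4 and 167.0 in CAF-1 OFF, and 156.0 and 104.0 in Hoxa9 OFF. All groups overlapped t0, and the log2 fold change was 0.26 ± 0.22 in CAF-1 OFF (edgeR FDR 0.419) and -0.02 ± 0.22 in Hoxa9 OFF (edgeR FDR 0.959). Between 73.3% and 84.0% of H2A.Z counts came from H2afv. Which of the 2 genes had more messenger RNA could not be told. The log2 ratio of H2afz to H2afv was between -1.78 and -0.84 per kilobase of transcript and between 0.85 and 1.78 per kilobase of unshared windows, of which H2afz has 168.

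Cenpa, the centromeric H3 variant, and H2afj, an H2A variant known from senescent and luminal epithelial cells, were not called in any comparison. Cenpa stood at 310.2 and 254.1 CPM in t0, 285.4 and 268.2 in the IPTG control, 308.1 and 339.8 in CAF-1 OFF, and 267.6 and 226.7 in Hoxa9 OFF. Its CAF-1 OFF libraries overlapped t0 (log2 fold change 0.20 ± 0.13, edgeR FDR 0.323) and lay above both Hoxa9 OFF libraries. That difference passed the FDR and not the 1.5-fold limit (0.39 ± 0.13, edgeR FDR 0.0403). Relative to both H3.3 genes, Cenpa per kilobase was lower in CAF-1 OFF than elsewhere, with log2 ratios of -1.18 and -1.46 against -4.0e-04 to 0.23 in the other 6 libraries. H2afj stood at 196.3 and 133.3 CPM in t0, 168.6 and 155.9 in the IPTG control, 151.2 and 162.8 in CAF-1 OFF, and 141.8 and 174.0 in Hoxa9 OFF. Its t0 libraries spanned all the others, with a log2 fold change of -0.07 ± 0.18 in CAF-1 OFF (edgeR FDR 0.816) and -0.06 ± 0.18 in Hoxa9 OFF (edgeR FDR 0.797). A miss of the threshold does not show equal levels for these genes.

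The order of levels between genes was read per kilobase of transcript, and it differed per kilobase of unshared windows. Per kilobase of transcript in t0, H2afy led at 595.2 ± 24.6 CPM per kilobase (SD, n = 2), followed by Cenpa at 208.4 ± 29.3, H3f3b at 193.0 ± 13.3 and H2afx at 163.8 ± 29.0, where each of these last 3 overlapped its neighbour. H2afj (90.2 ± 24.4) overlapped H2afv (80.3 ± 16.8), and H2afz (41.0 ± 3.95) overlapped H1fx (40.9 ± 9.43). H3f3a followed at 4.404 ± 0.31 and H1f0 at 0. In CAF-1 OFF, H3f3b stood first at 598.4 ± 124.1, with a range that overlapped that of H2afy (480.3 ± 63.2), and H1fx took place 4 at 184.2 ± 34.2, overlapping H2afx in place 5 (174.8 ± 0.87). In Hoxa9 OFF, H2afy still led at 296.0 ± 18.7, and H1fx stood at 12.9 ± 3.06, above only H3f3a and H1f0. Per kilobase of unshared windows in t0, H2afy still led (609.8 ± 25.2), and H3f3b (265.4 ± 18.3) and H2afz (260.7 ± 25.1) followed, overlapping each other, ahead of Cenpa (216.2 ± 30.4). On that scale H3f3b in CAF-1 OFF (823.0 ± 170.7) stood above H2afy (492.1 ± 64.8) with no overlap, and H1fx (193.1 ± 35.9) took place 6, overlapping H2afx and H2afz. The 10 genes together summed to 2780 and 2427 CPM in t0, 2635 and 2533 in the IPTG control, 3426 and 3795 in CAF-1 OFF, and 1820 and 1604 in Hoxa9 OFF. The sum was highest in both CAF-1 OFF libraries and lowest in both Hoxa9 OFF libraries. In bulk libraries, a shift in the mix of cells and a shift in messenger RNA per cell cannot be told apart.

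The genes that deposit, exchange or read these variants were given by lists, and their counts are read against the shares of all tested genes called. The shares called lower were 3.5% in CAF-1 OFF and 22.1% in Hoxa9 OFF, both against t0. The shares called higher were 10.5% and 25.2%, and 0 of these partner genes were called higher in either group. With lists of 6 to 11 genes, these counts are descriptions. Of 7 genes for H3.3 deposition, 0 were called in CAF-1 OFF against t0 and 2 were called lower in Hoxa9 OFF against t0, where the median log2 fold change of the list was 0.15 against 0.01 over all tested genes. The called genes were Asf1a, a chaperone that hands H3 and H4 to HIRA (62.5 and 61.0 CPM in t0, 28.4 and 24.6 in Hoxa9 OFF, log2 fold change -1.22 ± 0.13, edgeR FDR 1.38e-04), and Hira itself (162.9 and 168.6 against 77.9 and 92.5 CPM, -0.96 ± 0.12, edgeR FDR 3.60e-04). The log2 fold changes of 5 of these 7 genes in Hoxa9 OFF against t0 were positive, up to 0.58, under the 1.5-fold limit. The highest was that of Ubn1, another gene of the HIRA complex (128.6 to 139.9 CPM in t0, 196.3 to 206.0 in Hoxa9 OFF). Hira in CAF-1 OFF passed the FDR and not the 1.5-fold limit (128.9 and 111.5 CPM, -0.46 ± 0.12, edgeR FDR 0.0340), in the same cells in which H3f3b was 3.10-fold higher. Of 6 genes for CENP-A deposition and reading, 0 were called in CAF-1 OFF and 2 were lower in Hoxa9 OFF (median of the list -0.38), namely Cenpn (-1.41 ± 0.14), which binds CENP-A nucleosomes, and Oip5 (-0.81 ± 0.21), a part of the Mis18 complex. The Oip5 call was lost without t0 replicate 2 (-0.79, edgeR FDR 0.0571) and without Hoxa9 OFF replicate 2 (-0.52, under 1.5-fold, edgeR FDR 0.0305).

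Of 11 genes for H2A.Z exchange, 1 was lower in CAF-1 OFF (3.5% of all tested genes) and 3 were lower in Hoxa9 OFF (22.1%), with list medians of -0.15 and -0.28. Ruvbl2, an ATPase shared by the SRCAP, p400 and INO80 remodellers, stood at 387.6 and 329.9 CPM in t0, 246.0 and 231.9 in CAF-1 OFF, and 92.2 and 79.0 in Hoxa9 OFF. It fell in both groups, by a log2 fold change of -0.59 ± 0.12 in CAF-1 OFF (1.502-fold, at the limit, edgeR FDR 0.0173) and -2.07 ± 0.12 in Hoxa9 OFF (edgeR FDR 1.83e-05). The CAF-1 OFF call of Ruvbl2 was lost without t0 replicate 1 (-0.47, edgeR FDR 0.105), without CAF-1 OFF replicate 1 (-0.65, edgeR FDR 0.0556) and without CAF-1 OFF replicate 2 (-0.54, edgeR FDR 0.132). With the replicate block it was -0.583, under 1.5-fold (edgeR FDR 0.00819). Its partner ATPase Ruvbl1 was lower in Hoxa9 OFF (-1.98 ± 0.16) and not called in CAF-1 OFF (-0.44 ± 0.15, edgeR FDR 0.0778). Of 6 genes for kinases and readers of H2A.X, 0 were called in CAF-1 OFF and 3 were lower in Hoxa9 OFF (median of the list -0.72), among them the checkpoint kinase Atr (-1.38 ± 0.12) and the break-binding protein gene Trp53bp1 (-0.89 ± 0.11).

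Of 10 other variant genes, mostly of the germline, 7 were in the tables and 1 passed the filter. This was H2afy2, which encodes macroH2A2, at 0.36 and 0.34 CPM in t0, 0.42 and 0.25 in the IPTG control, 0.95 and 1.88 in CAF-1 OFF, and 4.83 and 5.90 in Hoxa9 OFF. It was called higher in CAF-1 OFF (2.00 ± 0.48, edgeR FDR 0.0261) and in Hoxa9 OFF (3.92 ± 0.48, edgeR FDR 2.89e-04), where H2afy fell. The t0 values rest on 8 counts in each library. Counts were 4 to 6 in the IPTG control, 18 to 36 in CAF-1 OFF and 89 to 119 in Hoxa9 OFF. H2afy2 thus passed the filter on low counts through the treated groups, the same groups in which it was called higher. It dropped out of testing where an average of 50 counts was required. The CAF-1 OFF call was lost without t0 replicate 1 (2.02, edgeR FDR 0.128), without t0 replicate 2 (1.97, edgeR FDR 0.107) and without CAF-1 OFF replicate 2 (1.42, edgeR FDR 0.173).

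**Figure D4:**
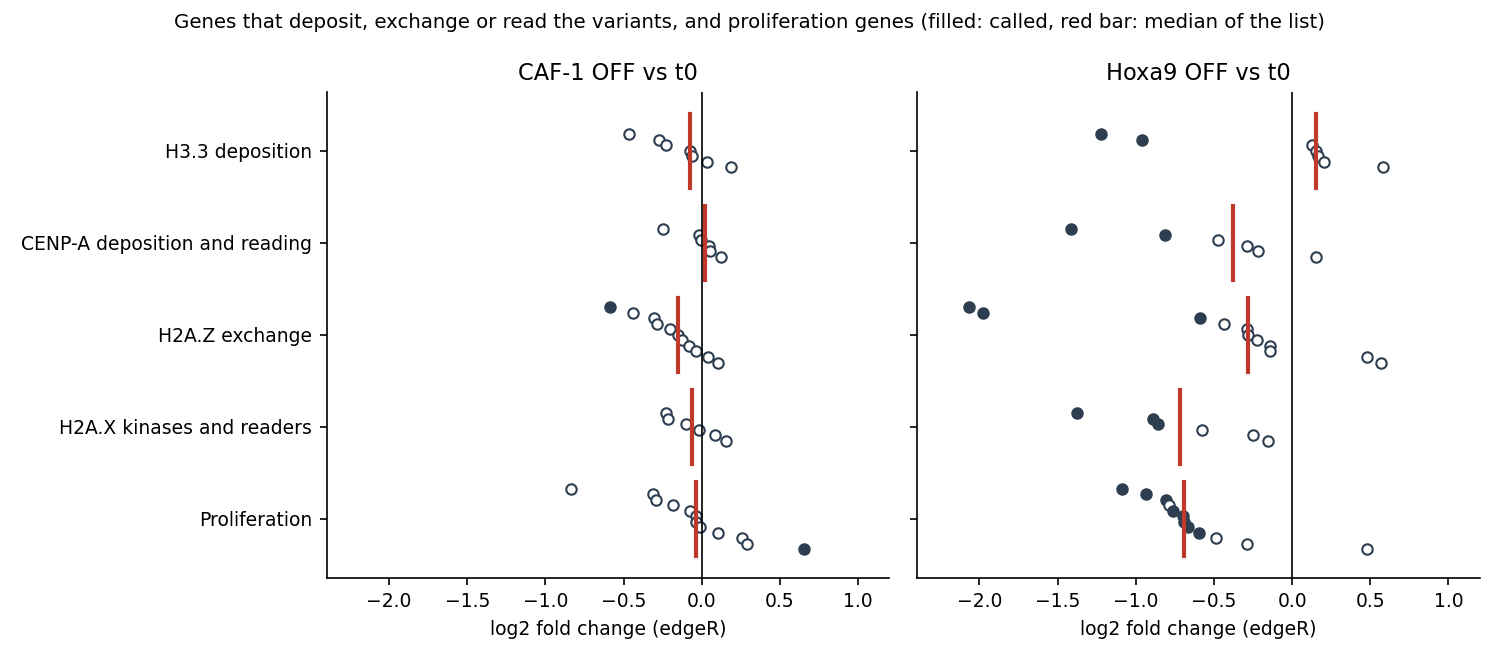
Log2 fold change (horizontal axis) of each gene on 4 lists of variant partners and a list of proliferation genes, in CAF-1 OFF against t0 (left) and Hoxa9 OFF against t0 (right); filled points are called and red bars mark the median of a list. The called genes stand to the left in Hoxa9 OFF, and 1 gene in each direction, Ruvbl2 and Mki67, is called in CAF-1 OFF.

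Other changes accompanied these results. Of 12 proliferation genes, 1 was called higher in CAF-1 OFF (Mki67, 0.65 ± 0.18, edgeR FDR 0.0374) where 10.5% of all tested genes were, and 8 were lower in Hoxa9 OFF, where 22.1% were, led by Mcm2 (-1.09 ± 0.14) and Mcm3 (-0.94 ± 0.13). The median log2 fold change of the list was -0.04 in CAF-1 OFF and -0.69 in Hoxa9 OFF. The Mki67 call was lost when any 1 library of t0, the IPTG control or CAF-1 OFF was left out, with log2 fold changes of 0.47 without t0 replicate 1 (edgeR FDR 0.203) to 0.85 without t0 replicate 2 (edgeR FDR 0.0572). The summed level of the list was 4585 and 4636 CPM in CAF-1 OFF, 5152 and 4590 in t0, and 3719 and 2644 in Hoxa9 OFF. The part of proliferation in the lower H2afx, H2afy and H1fx of Hoxa9 OFF was not tested. The marker counts that follow are against t0, where 10.5% of all tested genes were called higher in CAF-1 OFF and 25.2% in Hoxa9 OFF. Of 3 mast cell and basophil markers, 2 rose in CAF-1 OFF (Cpa3 and Mcpt8), and the third, Fcer1a, had at most 1 count there. Their summed level was 136.4 to 188.9 CPM in the controls, 1032 and 650.9 in CAF-1 OFF, and 155.4 and 216.1 in Hoxa9 OFF. Of 3 megakaryocyte markers, 2 rose in CAF-1 OFF, from 17.6 to 23.2 CPM in the controls to 164.8 and 199.0, and 1 of them, Itga2b, rose in Hoxa9 OFF, where the sum was 115.5 and 114.1. Neutrophil markers summed to 93.8 to 97.4 CPM in the controls, 1267 and 2198 in CAF-1 OFF, where 5 of 7 rose, and 8970 and 6110 in Hoxa9 OFF, where all 7 rose. Most of the CAF-1 OFF sum was Mmp8, the neutrophil collagenase gene, at 1091 and 1937 CPM, whereas Ltf (0.47 and 0.52 CPM) and Camp (0.63 and 1.83 CPM), which encode granule proteins, were not called there. Of 5 macrophage markers, 1 rose in CAF-1 OFF and 4 in Hoxa9 OFF, with sums of 26.9 to 54.5 CPM in the controls, 49.0 and 77.0 in CAF-1 OFF, and 1008 and 1532 in Hoxa9 OFF. The part of these cell types in the levels of H3f3b, H1fx and H2afy was not tested. Of the 70 replication-dependent histone genes, 32 were tested. Calls were 3 higher and 0 lower in CAF-1 OFF against t0 (10.5% and 3.5% of all tested genes), 4 higher and 2 lower against the IPTG control (9.56% and 3.2%), and 3 higher and 0 lower in Hoxa9 OFF against t0 (25.2% and 22.1%). The median log2 fold changes of the 32 were 0.80, -0.52 and -0.24 in these comparisons, and 1.21 in the IPTG control against t0, with 0 calls. How RNA was selected before sequencing is not given in the sources used here, and its part in these low counts was not tested. Without IPTG control replicate 1 the median was 0.42 in CAF-1 OFF against the IPTG control, with 1 higher and 0 lower calls (2.12% of all genes called in either direction), and 0.39 in the IPTG control against t0. The 6 calls in CAF-1 OFF against the IPTG control also became 2 without replicate 2 of the control or without CAF-1 OFF replicate 1, and 0 without CAF-1 OFF replicate 2. The median in Hoxa9 OFF against t0 was 0.20 without Hoxa9 OFF replicate 1 and -0.67 without its replicate 2. The 3 calls in CAF-1 OFF against t0 became 0 without either t0 library or without CAF-1 OFF replicate 2, where 1.14% to 6.09% of all genes were called, and the median stayed between 0.72 and 1.04 with any 1 library left out. The 3 calls in Hoxa9 OFF against t0 became 1 without t0 replicate 2 or without Hoxa9 OFF replicate 2.

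Among 6279 well-counted genes, those whose log2 CPM followed a variant most closely over the 8 libraries were listed for the 3 variants whose group means spanned at least 1 log2 unit. For H3f3b these were Hgf (Pearson r 0.988), Prkaca (0.985) and Ncapd3 (0.983). Hgf, the hepatocyte growth factor gene, stood at 268.6 and 231.3 CPM in t0, 550.0 and 710.7 in CAF-1 OFF, and 269.0 and 206.8 in Hoxa9 OFF. A high r does not mean a change of like size, and Prkaca was 1.27-fold higher in CAF-1 OFF than in t0 and not called. For H1fx they were Ermp1 (0.995), Tmem119 (0.994) and Mcpt8 (0.991). Mcpt8, a basophil protease gene, shared both directions of H1fx, with 34.4 and 29.5 CPM in t0, 267.1 and 227.8 in CAF-1 OFF, and 7.38 and 5.95 in Hoxa9 OFF. For H2afy they were Cstf1 (0.998), Cryzl1 (0.997) and Eftud1 (0.996). The 8 points fall into 4 groups of 2 and share each library's scaling, so these values describe likeness of pattern only.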

How the data were processed

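mRNA was measured in 8 libraries prepared from DNase-treated total RNA with a directional NEBNext kit. The authors used STAR to align reads to mm9 and HTSeq-count to count them. Deposited values are raw counts for each gene symbol, and 5 summary lines of each table (reads outside genes, with several alignments and the like) were kept out of library sizes and tests. The annotation and the strand setting are not given in the sources used here.

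Counts were fitted with edgeR 4.0.16 in R 4.3.3, with filterByExpr, TMM scaling, 1 quasi-likelihood fit of all 8 libraries with a mean per group, glmQLFTest and Benjamini-Hochberg adjustment over 13080 genes, with calls at 1.5-fold and an FDR under 0.05. CPM values use TMM-scaled library sizes, log2 CPM used a prior count of 2, and an SE was derived from the F statistic. Transcript lengths and unshared 50-base windows come from GENCODE vM1 and NCBIM37, with 1 transcript per gene, coding except for H1f0. The scripts were tested on simulated data. Figures were drawn with matplotlib 3.10.9.

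Groups and replicate numbers follow the labels, which do not say whether replicates are separate cultures. The study's supplement mentions RNA-seq of a pair of sub-clones without tying them to these libraries. Where replicates were not separate cultures, p-values measure only the spread between these libraries. Ratios between variants are given per library as descriptions and were not tested; an exact permutation test of 2 against 2 libraries cannot go below 0.33. The biological coefficient of variation was 18.9%, and count floors cover counting error only. The variants and the lists were chosen with earlier results of these data known. From each list of partners, at most the 2 highest and 2 lowest calls per comparison with t0 were named. Alternatives were other scalings, filters and thresholds, DESeq2 1.42.0, a replicate block, a fit of only the compared groups, and leaving out each replicate (for the replication-dependent histone genes, chosen after seeing the data).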

Additional observations from a re-analysis of the deposited data

How the results depend on the processing

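With 2 libraries per group, a single library can decide a call near the threshold. Of the called differences, those of H3f3b and H1fx and the fall of H2afy in Hoxa9 OFF kept direction and call under all 17 alternatives. The number of variants called in CAF-1 OFF against Hoxa9 OFF was 2 at FDR under 0.01 and 2-fold, the study's stricter thresholds, under which H2afx and H2afy lost their calls.

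Over the partner lists and the other variant genes together, 2 genes (Ruvbl2 and H2afy2) and 14% of all genes were called in CAF-1 OFF against t0. The count became 1 with library size only (13.7% of all genes), 0 with a mean of at least 50 counts (13.7%), 1 with the replicate block (16.2%) and 0 at FDR under 0.01 and 2-fold (2.78%). Leaving out 1 library of these groups gave 0 to 1: 0 without t0 replicate 1 (1.14%) or without CAF-1 OFF replicate 2 (1.98%), and 1 without t0 replicate 2 (6.09%) or without CAF-1 OFF replicate 1 (9.79%). In Hoxa9 OFF against t0, 10 partner genes and H2afy2, 11 in all, were called (47.2% of all genes), which became 6 at FDR under 0.01 and 2-fold (27.4%) and 17 with no fold threshold (57.5%), both by the threshold alone; the cause of the other changes was not tested. For H2afv, the difference between CAF-1 OFF and Hoxa9 OFF was called without Hoxa9 OFF replicate 1 (0.59, edgeR FDR 0.0457), and for Cenpa with library size only (0.62, edgeR FDR 0.00385).

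Several differences that were not called changed sign when 1 library was left out, and none of these values was called under another sign. In IPTG control against t0, the range was -0.16 to 0.12 for Cenpa, -0.17 to 0.31 for H1fx, -0.28 to 0.28 for H2afj, -0.13 to 0.30 for H2afv, -0.14 to 0.23 for H2afx, -0.064 to 0.038 for H2afy, -0.015 to 0.13 for H3f3a and -0.15 to 0.072 for H3f3b. In CAF-1 OFF against Hoxa9 OFF, the range was -0.16 to 0.14 for H2afj and -0.10 to 0.23 for H3f3a. In CAF-1 OFF against IPTG control, the range was -0.089 to 0.20 for H2afx. In CAF-1 OFF against t0, the range was -0.33 to 0.23 for H2afj and -0.080 to 0.28 for H2afx. In Hoxa9 OFF against t0, the range was -0.32 to 0.24 for H2afj and -0.34 to 0.25 for H2afv. Another sign was also given by library size only for H2afj in CAF-1 OFF against the IPTG control (4.5e-04) and against Hoxa9 OFF (0.22), and by a mean of at least 50 counts in the latter (0.0090).

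Per kilobase of unshared windows, an alternative chosen after seeing the data, the mean log2 ratio of H3f3a to H3f3b was -5.32 in t0, -5.23 in the IPTG control and -4.60 in Hoxa9 OFF, and the CAF-1 OFF libraries had -6.37 and -6.65. That of H2afz to H2afv was 1.67, 1.38, 1.07 and 1.23 in t0, the IPTG control, CAF-1 OFF and Hoxa9 OFF, and that of Cenpa to both H3.3 genes -0.34, -0.32, -1.73 and -0.18. The shift follows from the windows counted.

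Same-numbered libraries deviated together in t0, the IPTG control and Hoxa9 OFF (r from 0.30 to 0.48 over 13080 genes) and not with CAF-1 OFF (-0.04 to 0.08). The labels do not say what a number shares. The replicate block left the number of variants called in CAF-1 OFF against t0 at 2, a pair of groups without shared deviations (r -0.04). In Hoxa9 OFF against t0 (r 0.30), the calls of H1fx, H2afy and H2afx were also kept with the replicate block.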
